A study of Mus musculus with 3 samples.

Results

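The genes described here are the 7 fibrillar collagen genes of bone and connective tissue, Col1a1, Col1a2, Col3a1, Col5a1, Col5a2, Col5a3 and Col24a1, taken from the deposited table by their symbols. All 7 were among its 26970 genes, and all 7 passed the minimum of 1 FPKM, as an average of the libraries, that was asked of a gene. Mandibular condyles of mice aged 4 months were sequenced for RNA, taken with cartilage and underlying bone attached to each other, with 1 library each of WT (+/+), Dspp+/- and Dspp-/- animals. The Dspp allele was a global knockout on the C57BL/6 background, and heterozygotes had 1 knockout and 1 wild-type parent. The study pooled tissue of 3 animals for WT and of 3 for Dspp+/-, and the number behind the Dspp-/- library was not given. The knockout is not limited to the joint, and the study names severe tooth defects in Dspp-/- mice as a possible disturbance of the condyle. Each genotype is 1 library, which leaves no replicate check and allows no test of genotype. Each difference is one between single libraries.

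Fibrillar collagens are the rope-like proteins that give bone, tendon, skin and the fibrous layer of joints their tensile strength. Osteoblasts and fibroblasts secrete them as procollagens in which chains wind into a triple helix, and enzymes outside the cell trim the ends so that the molecules pack into fibrils. Type I collagen joins alpha 1 chains from Col1a1 with an alpha 2 chain from Col1a2 and is the main protein of bone. Type III collagen, made of Col3a1 chains only, accompanies it in soft and vascular tissue. Type V collagen, built from the products of Col5a1, Col5a2 and Col5a3, starts fibrils and limits their width. Col24a1 encodes a minor fibrillar chain found in developing bone. In the condyle, type I collagen is present in the bone and in the fibrous cover of the cartilage.

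The triple helix needs glycine in the first place of each Gly-X-Y triplet of residues, and the exons of these genes are cut to that repeat. One exon of each gene is printed to show this repeat, which belongs to the collagen triple helix and is not particular to the 7 genes. The cartilage fibrillar collagens, described further below, were not examined for it. Printed is the first coding exon of 54 bases that starts with a glycine codon and keeps glycine in the first place of each triplet. It is taken from the GENCODE M21 transcript with the longest coding sequence and read 5′ to 3′ on the gene's strand. Capitals mark the glycine codon that opens each triplet.
Col1a1 (chr11:94939904-94939957, GRCm38, plus strand): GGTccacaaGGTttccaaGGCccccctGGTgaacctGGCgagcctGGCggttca
Col1a2 (chr6:4515481-4515534, GRCm38, plus strand): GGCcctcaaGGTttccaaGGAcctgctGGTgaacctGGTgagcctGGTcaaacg
Col3a1 (chr1:45325360-45325413, GRCm38, plus strand): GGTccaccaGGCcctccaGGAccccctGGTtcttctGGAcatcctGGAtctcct
Col5a1 (chr2:27965251-27965304, GRCm38, plus strand): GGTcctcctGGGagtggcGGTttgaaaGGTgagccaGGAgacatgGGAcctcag
Col5a2 (chr1:45434892-45434945, GRCm38, minus strand): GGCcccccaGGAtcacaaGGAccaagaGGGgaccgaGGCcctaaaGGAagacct
Col5a3 (chr9:20801068-20801121, GRCm38, minus strand): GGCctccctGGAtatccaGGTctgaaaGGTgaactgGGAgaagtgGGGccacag
Col24a1 (chr3:145320661-145320714, GRCm38, plus strand): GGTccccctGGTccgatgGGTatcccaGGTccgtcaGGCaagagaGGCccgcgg
Each exon holds 6 triplets in 18 codons. Of the internal coding exons of the 7 transcripts, between 76.6% (49 of 64 in Col5a1) and 89.7% (52 of 58 in Col24a1) in 6 genes, and 45 of 50 in Col1a2, had a length that is a multiple of 9, the length of a triplet in bases. Over all 158907 internal coding exons of 21901 protein-coding genes, the share was 14.3%. Exons of exactly 54 bases numbered from 21 in Col1a1 to 33 in Col24a1. Although the genes share this repeat, almost no stretch of 100 bases is shared with other genes. It was 0% of the 100-base sequences for 5 of the genes, 0.421% for Col3a1, which shares them with the predicted gene Gm47302, and 0.236% for Col5a1.

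The 7 genes lie on 6 chromosomes. Their levels come from the same libraries and are not independent observations of a genotype. In GENCODE M21 (GRCm38), Col1a1 spans chr11:94936224-94953042 and Col1a2 chr6:4504814-4541544, both on the plus strand. Col3a1 (chr1:45311538-45349706, plus strand) and Col5a2 (chr1:45374321-45503282, minus strand) face each other on chromosome 1. Col5a1 spans chr2:27886425-28039514, Col5a3 chr9:20770050-20815067 and Col24a1 chr3:145292472-145552011. No exon of Col1a1, Col1a2, Col5a2, Col5a3 or Col24a1 overlaps another gene. In Col5a1 2.50% of the exon length overlaps genes on the other strand, and in Col3a1 1.44% overlaps a gene on the same strand.

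Values are FPKM, fragments scaled to the length of the gene and the depth of the library. The length is that of all annotated exons merged, 12426 bases for Col1a2 and 6563 for Col1a1, against coding sequences of 4116 and 4359 bases. Levels and proportions between genes therefore depend on the annotation, which counting intervals do not cover. Changes of a gene between libraries use the same length. The depth recovered from the table was 20241576 fragments for WT, 23613621 for Dspp+/- and 22253157 for Dspp-/-. Bracketed ranges are 95% intervals from those fragments, which cover counting error only and not the spread between mice. Other differences between the libraries stand beside every comparison. The mitochondrial share of summed FPKM was 25.0% for WT, 36.9% for Dspp+/- and 37.3% for Dspp-/-. Xist, the RNA of the inactive X chromosome of females, had 0.00551 FPKM for WT, 28.5 for Dspp+/- and 26.5 for Dspp-/-, while 4 Y-linked genes together had 36.6, 19.0 and 25.9 FPKM. Sex and genotype therefore cannot be told apart. Markers of erythroid cells, 6 genes, summed to 852 FPKM for WT, 3579 for Dspp+/- and 3446 for Dspp-/-, and 7 neutrophil markers to 589, 2555 and 3454 FPKM. Dspp was not analysed here, which leaves the labels unchecked against its level.

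Type I collagen transcripts dominated the family in every library. Col1a1 had 6675 FPKM for WT, 1719 for Dspp+/- and 3610 for Dspp-/-, and was the 5th, 15th and 9th most abundant of all genes in these libraries. Its partner Col1a2 had 2780 FPKM for WT, 700 for Dspp+/- and 1496 for Dspp-/-. For both chains WT was highest, Dspp-/- in the middle and Dspp+/- lowest. Type I chains made up 90.7% of the summed FPKM of the 7 genes for WT, 88.7% for Dspp+/- and 89.8% for Dspp-/-.

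Col3a1, the chain of type III collagen, was the next gene in all 3 libraries. It had 576 FPKM for WT, 185 for Dspp+/- and 372 for Dspp-/-. The type V chains were lower still and not equal to each other. Col5a2 had 197 FPKM for WT, 58.2 for Dspp+/- and 107.8 for Dspp-/-. Col5a1 had 158 FPKM for WT, 51.6 for Dspp+/- and 80.8 for Dspp-/-. In both genes the libraries stood in the same order as for type I collagen. Col5a3, the third type V chain, had 14.2 FPKM for WT, 8.04 for Dspp+/- and 7.96 for Dspp-/-. It was the only one of the 7 genes whose mutant libraries were level. Col24a1 had 19.2 FPKM for WT, 5.91 for Dspp+/- and 10.8 for Dspp-/-.

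**Figure D1:**
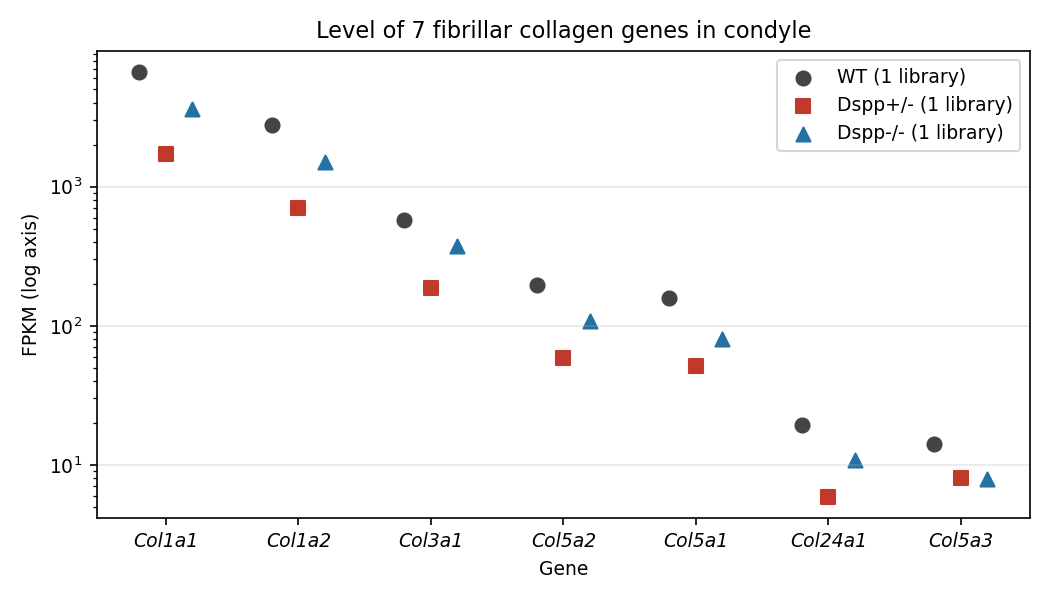
Level of each gene in FPKM (log axis) in the WT, Dspp+/- and Dspp-/- libraries, 1 point per library and no error bar because each genotype is 1 library. WT is highest for all 7 genes and Dspp+/- lowest for all but Col5a3, where the mutant libraries have 8.04 and 7.96 FPKM.

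The order of the 7 levels was the same in WT and Dspp-/-. From the top it ran Col1a1, Col1a2, Col3a1, Col5a2, Col5a1, Col24a1 and Col5a3. In Dspp+/- the last 2 changed places, since Col5a3 (8.04 FPKM) was 1.36 times Col24a1 (5.91 FPKM; interval 1.25 to 1.48). In WT, Col24a1 was 1.36 times Col5a3 (1.2803 to 1.44). All neighbours in the order differed beyond counting error in each library. The closest were Col5a2 and Col5a1 in Dspp+/-, where the first was 1.13 times the second (1.10 to 1.16).

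Against WT, the whole family was lower in Dspp+/-. Col1a1 had 25.7% of its WT level (25.6 to 25.9) and Col1a2 25.2% (25.0 to 25.3), so WT was 3.88 and 3.97 times as high. Col5a2 had 29.5% (28.9 to 30.1) and Col24a1 30.7% (28.6 to 33.0). Col3a1 had 32.2% (31.8 to 32.5) and Col5a1 32.6% (31.9 to 33.4). Col5a3 kept the most, with 56.6% of WT (52.8 to 60.8). On the scale of log2(FPKM + 1), the ratios ran from -1.99 for Col1a2 to -0.75 for Col5a3, with a median of -1.63. Of the 7 genes, 6 were at least 2-fold lower and none was higher. Of all 13026 genes that passed the same minimum, 2.86% were at least 2-fold lower and 4.88% at least 2-fold higher in this comparison, and their median was 0.058. In a bulk library, fewer cells of a type and less RNA per cell cannot be told apart.

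In Dspp-/- the family was also lower than in WT, by less. Col5a1 had 51.1% of its WT level (50.1 to 52.2), Col1a2 53.8% (53.6 to 54.02) and Col1a1 54.1% (53.9 to 54.3). Col5a2 had 54.7% (53.8 to 55.6), Col24a1 56.0% (52.8 to 59.4) and Col5a3 56.1% (52.2 to 60.3). The type III chain Col3a1 kept the most here, with 64.5% (63.9 to 65.1). The log2 ratios ran from -0.96 for Col5a1 to -0.63 for Col3a1, with a median of -0.86, so the members lay in a narrow band close to the 2-fold line and none passed it. By the same threshold 1.37% of all genes tested were lower and 4.05% higher, with a median of 0.0070. This count depended on the scaling of the libraries. It was 4 of 7 when hemoglobin, immunoglobulin and muscle genes were left out of the sum, where 2.46% of all genes were lower, and 5 of 7 with housekeeping genes as the base, where 3.42% were. Among all genes past 2-fold, 63.0% were higher in Dspp+/- and 74.6% in Dspp-/-, against 39.1% and 45.1% with housekeeping scaling. Both comparisons use the same WT library.

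**Figure D2:**
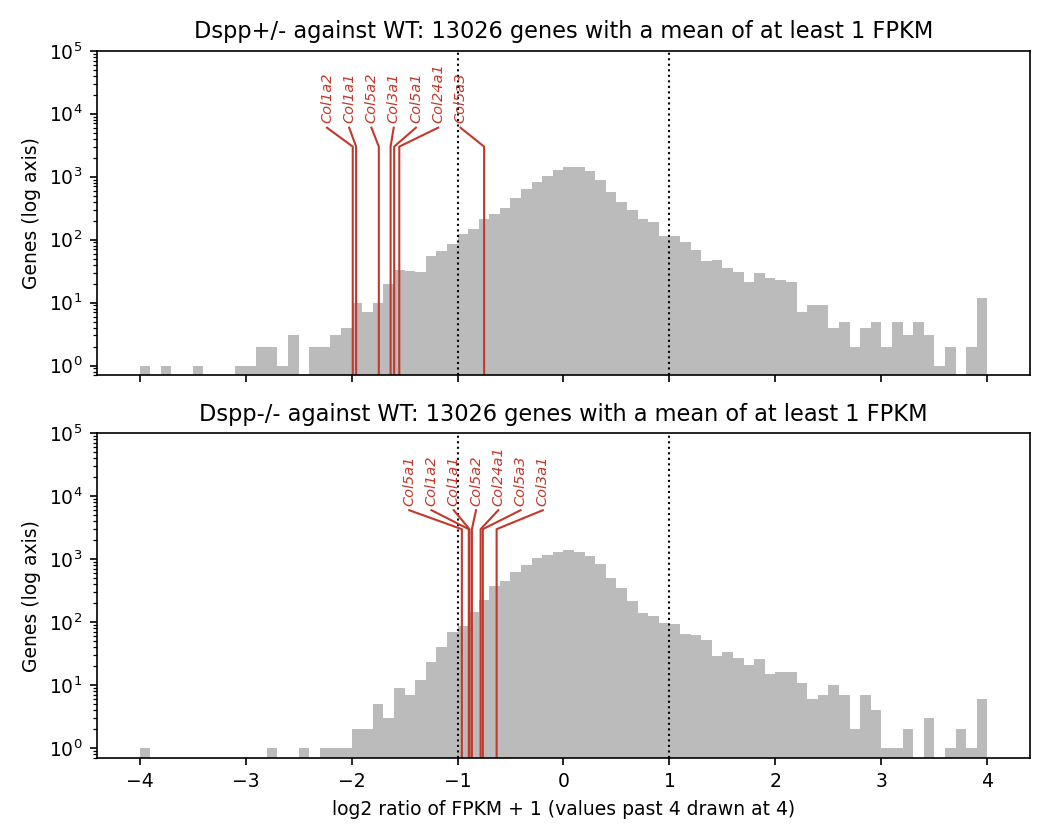
Histograms of the log2 ratio of FPKM + 1 for 13026 genes (number of genes on a log axis), Dspp+/- against WT above and Dspp-/- against WT below, with each of the 7 collagen genes as a labelled red line and the 2-fold thresholds as dotted lines. In Dspp+/- 6 of the 7 lie beyond the lower threshold, with Col5a3 at -0.75, and in Dspp-/- all 7 lie between -0.96 and -0.63.

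The mutant libraries were also set against each other, a comparison that leaves WT out. Col1a2 in Dspp+/- had 46.8% of its level in Dspp-/- (46.5 to 47.0), Col1a1 47.6% (47.4 to 47.8) and Col3a1 49.9% (49.3 to 50.4). Col5a2 had 53.97% (52.8 to 55.1), Col24a1 54.9% (50.9 to 59.3) and Col5a1 63.8% (62.2 to 65.4). Col5a3 differed by less than counting error, with 101% (93.3 to 109). On the log2 scale the median of the 7 genes was -0.88, and Col1a1, Col1a2 and Col3a1 were at least 2-fold lower in Dspp+/-, against 0.852% of all genes tested. None was 2-fold higher, against 0.798% of all genes. Col3a1, at -1.0004, sat on the threshold and left it with a pseudocount of 5 FPKM or housekeeping scaling. The sign for Col5a3 turned with the scaling, from 0.012 to -0.036 when the 7 genes were left out of the sum.

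Ratios between genes of the same library do not depend on how libraries are scaled, and they show which chains held together. Per 100 FPKM of Col1a1, Col1a2 had 41.6 FPKM for WT, 40.7 for Dspp+/- and 41.4 for Dspp-/-. The pair of chains of type I collagen therefore kept nearly 1 proportion in 3 libraries whose Col1a1 levels differed up to 3.88-fold. The proportion in Dspp+/- was 0.978 times that in WT (0.971 to 0.984), and in Dspp-/- it was 0.995 times WT (0.990 to 1.0002).

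Relative to Col1a1, the other chains were higher in Dspp+/- than in WT. Col3a1 had 8.64 FPKM per 100 FPKM of Col1a1 for WT, 10.8 for Dspp+/- and 10.3 for Dspp-/-. This ratio was 1.25 times WT (1.23 to 1.26) in Dspp+/- and 1.19 times WT (1.18 to 1.20) in Dspp-/-, so type III was higher against type I in both mutant libraries. For Col5a1 the ratio was 2.37 per 100 for WT, 3.00 for Dspp+/- and 2.24 for Dspp-/-, which is 1.27 times WT (1.24 to 1.296) in the first mutant and 0.946 times (0.927 to 0.965) in the second. For Col5a2 it was 1.15 times WT (1.12 to 1.17) in Dspp+/- and 1.01 times (0.995 to 1.03) in Dspp-/-. For Col24a1 it was 1.19 times (1.11 to 1.281) and 1.04 times (0.976 to 1.10). In Dspp-/- the intervals for Col5a2, Col5a3 and Col24a1 include equality with WT.

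Col5a3 stood apart in Dspp+/-. Per 100 FPKM of Col1a1 it had 0.213 FPKM for WT, 0.468 for Dspp+/- and 0.220 for Dspp-/-, a ratio 2.20 times WT (2.05 to 2.36) in Dspp+/- and 1.04 times (0.966 to 1.11) in Dspp-/-. It also departed from the other type V chains. Per 100 FPKM of Col5a1 there were 8.97 FPKM of Col5a3 for WT, 15.6 for Dspp+/- and 9.85 for Dspp-/-, while Col5a2 had 125, 113 and 133 FPKM by the same measure. Its values rest on 1955 fragments for WT, 1292 for Dspp+/- and 1206 for Dspp-/-.

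**Figure D3:**
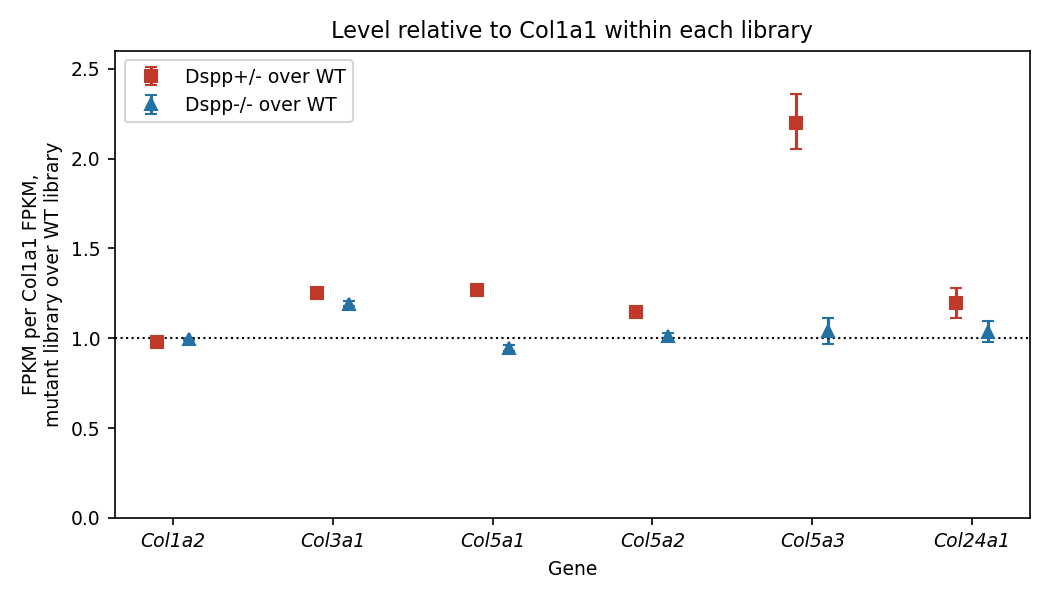
Level of 6 collagen genes per Col1a1 FPKM in a mutant library, divided by the same ratio in WT, with 95% counting intervals as bars and equality with WT as a dotted line. Col1a2 lies near 1 in both mutants, Col3a1 lies at 1.25 and 1.19, and Col5a3 lies at 2.20 in Dspp+/- and 1.04 in Dspp-/-.

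The sequences before the start sites were compared because most of these genes moved together and Col5a3 less so in Dspp+/-. RefSeq promoters (GRCm38.p6) were at hand for 5 of the 7 genes, Col1a2, Col3a1, Col5a1, Col5a3 and Col24a1. Printed are the 250 bases before the RefSeq start of Col1a2 (inside the GENCODE span of that gene), the member with the lowest ratio in Dspp+/-, and of Col5a3, which had the highest. Capitals mark CCAAT, the motif bound by NF-Y, and GGGCGG, the GC box bound by Sp1, on either strand.
Col1a2 (chr6:4505368-4505617, plus strand): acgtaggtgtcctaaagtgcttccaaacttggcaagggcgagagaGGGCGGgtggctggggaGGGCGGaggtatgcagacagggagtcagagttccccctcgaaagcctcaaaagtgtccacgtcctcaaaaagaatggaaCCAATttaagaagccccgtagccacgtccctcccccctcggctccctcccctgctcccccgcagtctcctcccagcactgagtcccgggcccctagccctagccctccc
Col5a3 (chr9:20815068-20815317, minus strand): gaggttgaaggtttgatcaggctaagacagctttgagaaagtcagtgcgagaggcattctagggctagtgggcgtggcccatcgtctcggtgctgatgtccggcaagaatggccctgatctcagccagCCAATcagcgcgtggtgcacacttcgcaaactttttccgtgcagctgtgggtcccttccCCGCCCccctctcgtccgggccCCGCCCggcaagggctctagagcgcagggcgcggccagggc
Both windows hold 1 CCAAT and 2 GC boxes, and their GC content was 62.0% and 62.8%. Of all 32851 promoters of the same length, 33.8% hold CCAAT, 32.7% hold GGGCGG and 12.4% hold TATAAA, counting both strands. The Col5a1 window has 2 GC boxes and no CCAAT, the Col3a1 window has TATAAA alone of the motifs, and that of Col24a1 has none. Col5a3 and Col1a2 have the same number of each motif in this window. Whether promoter sequence has a part in the levels was not tested.

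The cartilage fibrillar collagens, which form the fibrils of hyaline cartilage, were lower as well. All 4 of Col2a1, Col11a1, Col11a2 and Col27a1 were at least 2-fold lower in Dspp+/-, with a median log2 ratio of -2.00, and 2 of 4 in Dspp-/-, with a median of -1.12. Col2a1, the main collagen of cartilage, fell from a WT level of 761 FPKM to 94.2 in Dspp+/- and 308 in Dspp-/-. Col11a2, a chain of type XI collagen, fell from 146 FPKM to 32.9 and 49.3. The list was split around Col1a1, which had a log2 ratio of -1.96 in Dspp+/-. Col2a1 (-3.00) and Col11a2 (-2.12) were below it, and Col11a1 (-1.88) and Col27a1 (-1.55) above it.

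A list of 6 transcription factors held those known to act on type I collagen genes or on collagen synthesis. Of these, 2 were at least 2-fold lower in Dspp+/- and 1 in Dspp-/-, and none was higher by that measure. Sp7, the osteoblast factor osterix, had 65.4 FPKM for WT, 23.6 for Dspp+/- and 34.6 for Dspp-/-. Atf4, a factor for amino acid supply to collagen synthesis, had 74.3, 83.9 and 63.4 FPKM. Atf4 was thus the 1 factor of 6 above WT in Dspp+/-, and all 6 were below WT in Dspp-/-.

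Genes for folding and hydroxylating procollagen, listed together with the secreted collagen-binding protein Sparc, had a median nearer to WT than that of the chains. Of 17 genes, 16 were lower in Dspp+/- and 7 of them at least 2-fold, with a median of -0.89 against -1.63 for the 7 collagen genes. In Dspp-/- 16 were lower and 3 at least 2-fold, with a median of -0.59. Sparc, also called osteonectin, held most of the summed FPKM of the list. It fell from 4675 FPKM to 1245 in Dspp+/- and had 2401 in Dspp-/-. Sparc (-1.91) and Fkbp10 (-1.75), a prolyl isomerase, had lower log2 ratios in Dspp+/- than the collagen median. Serpinh1, the collagen chaperone HSP47, had 428 FPKM for WT, 160 for Dspp+/- and 196 for Dspp-/-. The 1 gene that was higher, Tmem38b, an ion channel of the endoplasmic reticulum, had 15.2, 22.1 and 20.5 FPKM and is named because it alone went the other way.

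Outside the cell, the 11 genes tested that remove propeptides and crosslink fibrils were lower in both mutants. In Dspp+/- 7 of the 11 were at least 2-fold lower, with a median of -1.25, and in Dspp-/- 4 of 11, with a median of -0.65. Lox, the lysyl oxidase that starts crosslinks, had 129 FPKM for WT, 39.4 for Dspp+/- and 83.6 for Dspp-/-. Pcolce, which speeds the removal of the C-propeptide, had 106 FPKM for WT, 35.7 for Dspp+/- and 51.6 for Dspp-/-. The 12th gene, Tll1, averaged under 1 FPKM and was not tested, with 0.350 FPKM for WT, 0.191 for Dspp+/- and 0.475 for Dspp-/-.

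Genes for proteins on the fibril surface had medians nearer to WT than the chains. Of 10, 3 were at least 2-fold lower in Dspp+/- and 1 in Dspp-/-, with medians of -0.60 and -0.23. Fmod, the proteoglycan fibromodulin, had 1032 FPKM for WT, 621 for Dspp+/- and 621 for Dspp-/-. Bgn, the proteoglycan biglycan, had 700, 373 and 537 FPKM. Neither passed the 2-fold threshold in either mutant. Collagen receptors had medians close to those of this group. Among them, 1 of the 9 genes tested was at least 2-fold lower in both mutants, and the medians were -0.63 and -0.26. The one past the threshold was Mrc2, an endocytic receptor for collagen, with 43.6 FPKM for WT, 18.3 for Dspp+/- and 20.8 for Dspp-/-. Itgb1, the integrin beta 1 subunit, had 174, 137 and 157 FPKM. Itga1, an integrin alpha subunit, and Lair1, an inhibitory receptor of immune cells, were above WT in both mutants, with log2 ratios of 0.54 and 0.39 for the first and 0.43 and 0.51 for the second. Gp6, the collagen receptor of platelets, averaged under 1 FPKM and was not tested, with 0.126, 1.18 and 0.899 FPKM.

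The genes that degrade collagen, with their inhibitors, were lower together with the chains in Dspp+/-. Of 9 genes, 7 were at least 2-fold lower and 1 at least 2-fold higher, with a median of -1.21. In Dspp-/- none was 2-fold lower and the same gene was higher, with a median of -0.55. Ctsk, the cathepsin K of osteoclasts, had 863 FPKM for WT, 279 for Dspp+/- and 481 for Dspp-/-. Mmp13, a collagenase of bone and cartilage, had 649, 240 and 487 FPKM. Mmp8, the collagenase of neutrophils, was the exception, with 10.04 FPKM for WT, 39.8 for Dspp+/- and 67.6 for Dspp-/-. The neutrophil markers moved with it, as given with the library values, and their part in this result was not tested.

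**Figure D4:**
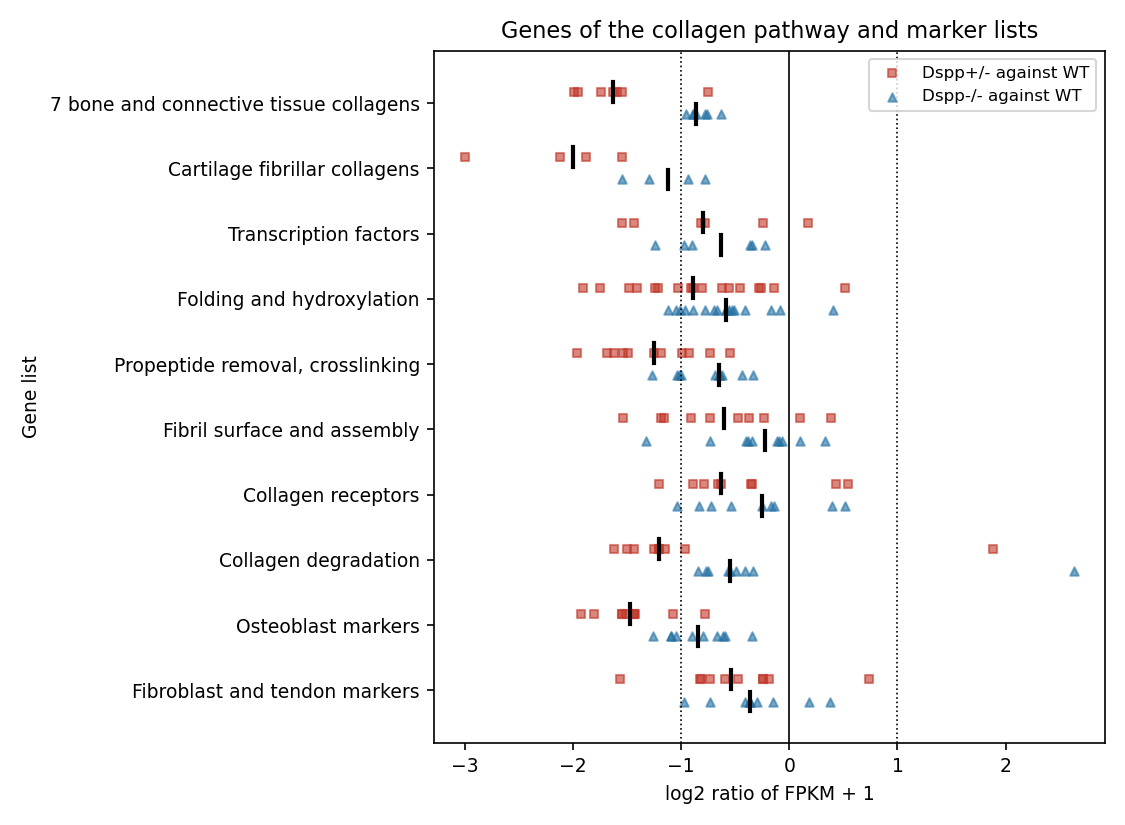
Log2 ratio of FPKM + 1 against WT for each gene tested in 10 lists, squares for Dspp+/- and triangles for Dspp-/-, with list medians as black bars and 2-fold thresholds as dotted lines. The 7 collagen genes have medians of -1.63 and -0.86, folding genes -0.89 and -0.59, and Mmp8 stands alone on the right with 1.88 and 2.64.

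Markers of the cells that make these collagens were read beside them. All 10 osteoblast markers were present in every library and lower in both mutants, 9 of them at least 2-fold in Dspp+/- and 4 in Dspp-/-, with medians of -1.47 and -0.85, close to the -1.63 and -0.86 of the collagen genes. Their summed level was 3581 FPKM for WT, 1032 for Dspp+/- and 1768 for Dspp-/-. Most of it came from Ibsp (1643, 433 and 685 FPKM) and Bglap (1353, 386 and 778 FPKM). Col1a1 stood at 1.86 times that sum for WT, 1.67 times for Dspp+/- and 2.04 times for Dspp-/-, a narrower range than that of Col1a1 itself. The same was seen against the summed chondrocyte markers, where Col1a1 stood at 4.02, 3.66 and 4.84 times the sum. The narrow range against a sum is therefore not particular to osteoblast markers. Comp (462, 312 and 227 FPKM) was the largest part of the chondrocyte sum in Dspp+/-. The 8 chondrocyte markers tested had median log2 ratios of -2.27 and -1.03, against -1.63 and -0.86 for the collagen genes. The 10 fibroblast and tendon markers had medians of -0.54 and -0.36, and 1 of them, Postn, was at least 2-fold lower in Dspp+/-. Prg4 was above WT in both mutants (43.8, 73.4 and 57.2 FPKM) and Tnmd in Dspp-/- only (5.48, 4.48 and 6.34 FPKM). The summed level of the 10 was 1824, 1084 and 1271 FPKM, with Fmod the largest part (1032, 621 and 621 FPKM). Against this sum Col1a1 stood at 3.66 times for WT, 1.59 times for Dspp+/- and 2.84 times for Dspp-/-. Col5a3 was different in Dspp+/- only. Per 100 FPKM of fibroblast and tendon markers it had 0.777 FPKM for WT, 0.741 for Dspp+/- and 0.626 for Dspp-/-. Per 100 FPKM of osteoblast markers it had 0.396, 0.779 and 0.450. In Dspp-/- it was nearer to its WT value per osteoblast markers than per fibroblast and tendon markers.

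Chondrocyte markers were also low in the mutants, at 1660 FPKM in sum for WT, 470 for Dspp+/- and 746 for Dspp-/-, and of the 10 only Matn1 was at or under the floor of 3 fragments, which it was in all 3 libraries. The 6 skeletal muscle markers summed to 9515, 12897 and 10812 FPKM, mostly from Acta1 (5609, 8162 and 7150 FPKM), while Myh4 had 124, 18.2 and 111 FPKM and 3 of the 6 were below WT in Dspp-/-. The 5 B cell markers summed to 316, 894 and 756 FPKM, mostly from Igkc (301, 841 and 721 FPKM), while Vpreb1 had 1.40, 0.565 and 1.46 FPKM. The 4 adipocyte markers summed to 52.5, 47.8 and 116 FPKM, with 2 below and 2 above WT in Dspp+/-. Cfd had 23.5, 8.50 and 62.0 FPKM and Fabp4 21.8, 32.3 and 35.9 FPKM. The 5 endothelial markers summed to 110, 128 and 125 FPKM and the 4 markers of smooth muscle and pericytes to 196, 247 and 246. Of the endothelial markers, 1 was below WT in Dspp+/-. Blood cell markers thus took a larger share of the mutant libraries, and bone and cartilage markers a smaller one, than in WT. The part of this tissue mix in the collagen levels was not tested.

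Genes with a pattern most like that of Col1a1 were found by the distance between log2 ratios in Dspp+/- and Dspp-/- against WT, over 3 libraries and the 4038 genes, Col1a1 aside, that averaged 10 FPKM or more. Col1a2 was the nearest of all, at a distance of 0.032. Outside the 7 genes the nearest were C1qtnf6 (0.057), a C1q and TNF related protein, Sparc (0.089), Wif1 (0.094), a secreted Wnt antagonist, Col11a1 (0.13), Acan (0.16), the core protein of aggrecan, and Bglap (0.17), osteocalcin. The remaining members were at places 8 (Col5a2), 21 (Col5a1), 30 (Col3a1), 32 (Col24a1) and 306 (Col5a3). Places follow the distance, which describes these 3 libraries.

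In all, the 7 genes took 8.75% of the fragments in WT (8.74 to 8.76), 2.29% in Dspp+/- (2.28 to 2.29) and 4.78% in Dspp-/- (4.77 to 4.79). As a share of summed FPKM they held 3.38%, 0.758% and 1.63%. Without mitochondrial genes in the sum these shares were 4.50%, 1.20% and 2.597%, in the same order.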

How the data were processed

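RNA of mandibular condyles was sequenced as poly(A)-selected libraries in pairs of 150 bases, 1 library per genotype. The authors deposited 1 table of values whose unit is not named, and these were read as FPKM because multiplication by merged exon length (GENCODE M21) gave whole fragments, within 0.1, for 98.8% to 98.9% of genes under 100 fragments. The submitters' processing notes name FastQC 0.11.5, HISAT2 2.1.0, StringTie 1.3.3b and DESeq 1.28.0, with no roles given, and a human genome build, which cannot be that of these mouse genes. Positions are those of GENCODE M21 and not of the table, which shares both ends with it for 578 genes. For Col5a1 the fragments came out whole only in Dspp+/- and were rounded.

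A gene was tested if it averaged 1 FPKM or more. The log2 ratio of FPKM + 1, a scale that understates the change of low genes, was called at 2-fold. With 1 library per genotype no test can be run, and no p-value is given. Folds carry 95% Clopper-Pearson intervals from fragments, and ratios of ratios carry 95% intervals on the log scale. Fragment recovery and the fold scripts were tested on simulated data. The genes named from each list are the 2 with the highest FPKM in WT and any past 2-fold against the direction of the list. Tmem38b, Fkbp10, Col11a1, Col27a1, Itga1, Lair1, Gp6, Tll1, Postn, Prg4, Tnmd, Acta1, Myh4, Igkc, Vpreb1, Cfd and Fabp4 were added after their values were seen. The 7 pathway lists, the 10 marker lists and the members were chosen with earlier results of these data known. The 12 processing alternatives were pseudocounts, filters, scalings and thresholds, and scaling to a common FPKM sum was added after seeing the data. Tools were scipy 1.17.1, pandas 2.3.3, numpy 2.4.6 and matplotlib 3.10.9 under Python 3.11.15.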

Additional observations from a re-analysis of the deposited data

How the results depend on the processing

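No paired analysis was possible because each genotype has 1 library. All 7 genes were below WT in both mutants under each of the 11 alternatives that change a ratio or the genes tested, one of which, scaling to a common FPKM sum, was chosen after seeing the data. Scalings moved the median of all genes by up to -0.21 in each comparison, and relative to it the collagen median lay between -1.74 and -1.68 in Dspp+/- and between -0.92 and -0.86 in Dspp-/-. For the 7 genes in Dspp+/- the median was -1.69 with a pseudocount of 0.1 FPKM or median-ratio scaling, -1.61 with a pseudocount of 5 FPKM, -1.60 without mitochondrial genes in the sum, -1.82 without hemoglobin, immunoglobulin and muscle genes, -1.89 with housekeeping scaling or without the 7 genes, and -1.85 with a common sum. In Dspp-/- it was -0.84 with upper-quartile scaling and, in the order of the last 5 scalings, -0.79, -1.03, -1.13, -1.07 and -1.04. For Dspp+/- against Dspp-/- it was -0.84 with a pseudocount of 5 FPKM, -0.93 with median-ratio scaling, without mitochondrial genes or without the 7 genes, and -0.92 with upper-quartile scaling or a common sum.

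In Dspp-/- none of the 7 genes was 2-fold lower as reported. The count was 4 without hemoglobin, immunoglobulin and muscle genes, without the 7 genes or with a common sum. Of all genes, 2.46%, 2.73% and 2.52% were lower there, in that order. The count was 5 with housekeeping scaling, against 3.42% of all genes, and 7 at 1.5-fold, against 8.21%. At 4-fold 0 of the 7 were lower in either mutant, against 0.184% of all genes in Dspp+/- and 0.0461% in Dspp-/-. Between the mutants 6 were lower at 1.5-fold and 0 at 4-fold, and the share of all genes was not taken there. Against 373 of all genes lower in Dspp+/-, there were 605 and 156 with the lower and higher pseudocount, 571, 653, 655 and 594 with the 4 scalings from hemoglobin to the common sum, 1166 at 1.5-fold and 24 at 4-fold. Against 179 in Dspp-/-, there were 363 and 45, then 320, 445, 356 and 328, then 1070 and 6, and 110 with a minimum of 5 FPKM. The cause of these shifts was not tested. With 1 library per genotype, the spread between mice is unknown, and depth limits only counting error, which is widest for Col5a3 and Col24a1.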
